A study of Mus musculus with 6 samples.

Results

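The skeletal myosin heavy chain cluster of mouse chromosome 11 holds 6 genes side by side, in the order Myh3, Myh2, Myh1, Myh4, Myh8 and Myh13. The acetylation of histone H3 at lysine 27 (H3K27ac), a mark of active promoters and enhancers, was followed along it while C2C12 cells differentiated. The members were all H3K27ac peaks that overlapped the mm9 window from 66870000 to 67195000, a length of 325 kb. They numbered 74 of 243962 peaks over 3 lists, with 0 of 57101 peaks in proliferation, 28 of 89717 at 36 h and 46 of 97144 at 72 h of differentiation. C2C12 is an immortalised mouse myoblast line that divides in growth conditions and fuses into contractile myotubes when it differentiates. Proliferating cells, cells after 36 h and cells after 72 h of differentiation were each represented by a single H3K27ac library built from pooled DNA of 4 ChIP assays, and the series also has an input library per stage, 6 samples in all. The labels give stage as the difference between the groups and name no genotype change or agent. With 1 library per stage the spread between cultures was not measured, and no comparison between stages carries a test.

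Myosin heavy chains are the motor proteins of the thick filament and set the speed of contraction of a muscle fibre. Myh3 encodes the embryonic and Myh8 the perinatal isoform, which are made in developing and regenerating muscle. Myh2, Myh1 and Myh4 encode the fast adult isoforms known as IIa, IIx and IIb, and Myh13 encodes the isoform of the extraocular muscles. Myosin heavy chain protein is the usual marker of differentiated C2C12 myotubes. In the RefSeq gene table (GRCm38.p6) the long non-coding RNA genes 2310065F04Rik, also called linc-Myh, and Gm31285 lie between Myh3 and Myh2, and Myhas lies between Myh1 and Myh4. Sco1 is the next gene before Myh3, and Gas7 is the next protein-coding gene after Myh13. This gene table is on another build than the peaks, so peaks were placed by their mm9 position and by the order of the genes, and were not assigned to single genes.

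The promoters are shown first because they are the sequences at which the genes of the cluster can be compared. RefSeq promoter windows, 250 bases before and 50 bases after the start, were found for 6 of 6 genes, all on the plus strand of chromosome 11 in GRCm38.p6. The promoters of Myh2, Myh1, Myh4 and Myh8, which share the longest runs of sequence, and that of Myh3, the gene at the end of the window with most peaks, read as follows from 5′ to 3′. Capitals mark runs of at least 10 bases that are identical in the promoter of another of the 6 genes.
Myh3: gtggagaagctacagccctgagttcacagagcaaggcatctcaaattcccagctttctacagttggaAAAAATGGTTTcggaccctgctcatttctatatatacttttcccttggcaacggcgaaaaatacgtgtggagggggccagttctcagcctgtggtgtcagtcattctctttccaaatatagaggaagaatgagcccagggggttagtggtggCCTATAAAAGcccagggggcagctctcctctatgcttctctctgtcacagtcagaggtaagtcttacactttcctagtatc
Myh2: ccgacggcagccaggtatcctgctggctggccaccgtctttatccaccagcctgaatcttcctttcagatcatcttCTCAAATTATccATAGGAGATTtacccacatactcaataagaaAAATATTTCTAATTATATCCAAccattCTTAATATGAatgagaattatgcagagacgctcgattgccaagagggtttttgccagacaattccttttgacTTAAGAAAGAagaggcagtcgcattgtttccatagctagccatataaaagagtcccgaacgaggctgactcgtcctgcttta
Myh1: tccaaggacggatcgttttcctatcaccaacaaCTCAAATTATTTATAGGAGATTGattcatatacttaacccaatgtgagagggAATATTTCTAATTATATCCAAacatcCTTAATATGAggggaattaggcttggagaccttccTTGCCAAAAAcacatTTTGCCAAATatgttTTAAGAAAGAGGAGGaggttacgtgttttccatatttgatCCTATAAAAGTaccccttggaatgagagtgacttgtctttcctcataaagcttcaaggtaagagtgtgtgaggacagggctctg
Myh4: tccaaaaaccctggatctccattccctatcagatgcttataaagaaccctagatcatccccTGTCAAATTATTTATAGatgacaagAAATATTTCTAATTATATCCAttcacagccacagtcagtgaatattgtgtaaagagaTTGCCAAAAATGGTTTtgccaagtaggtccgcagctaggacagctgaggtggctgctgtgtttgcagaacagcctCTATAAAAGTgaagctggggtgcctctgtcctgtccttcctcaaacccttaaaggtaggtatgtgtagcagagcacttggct
Myh8: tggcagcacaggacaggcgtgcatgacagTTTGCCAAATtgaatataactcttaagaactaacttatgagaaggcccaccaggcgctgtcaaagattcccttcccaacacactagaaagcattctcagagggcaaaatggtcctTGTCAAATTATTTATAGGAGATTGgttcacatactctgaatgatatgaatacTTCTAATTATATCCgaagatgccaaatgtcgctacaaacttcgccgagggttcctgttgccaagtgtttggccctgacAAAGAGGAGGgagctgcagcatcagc

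The promoters of the fast genes and of Myh8 carried common stretches that were absent from those of Myh3 and Myh13. The 14-base run TTCTAATTATATCC was present in Myh2, Myh1, Myh4 and Myh8, and in 4 of 32851 RefSeq promoters in total on either strand, that is 0.0122%. Counted from the start site, its first base was at -125 in Myh2, -160 in Myh1 and -158 in Myh4, and at -54 in Myh8. A 20-base run, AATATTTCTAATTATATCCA, extended it in Myh2, Myh1 and Myh4. The longest run of any pair, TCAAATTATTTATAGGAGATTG with 22 bases, was shared by Myh1 and Myh8. Myh3 shared at most 11 bases with another member, AAAAATGGTTT with Myh4, and Myh13 shared at most 9. In bases that belong to runs of at least 10 shared with another member, Myh1 had 100, Myh4 64, Myh2 62, Myh8 58, Myh3 21 and Myh13 0 of 300.

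Several motifs of muscle promoters were searched on both strands, and the matches are descriptions of letters, not of bound sites. An E-box, CANNTG, the site of MyoD-family factors, was present in 4 of 6 promoters (Myh3, Myh4, Myh8 and Myh13), and in 72.3% of all promoters of this length. A match to the MEF2 motif was present in Myh1, Myh4 and Myh8, compared with 3.19% of all promoters. In each of them it was the same TTATTTATAG, inside a run that these promoters share. The matches are thus a single common element and not separate occurrences. In Myh4 and Myh13 a CArG box, the motif of serum response factor, was found, compared with 1.63% of all promoters. An MCAT element, CATTCC, was present in Myh1 and Myh4, compared with 14.7% of all. TATAAA was present on either strand in 5 of 6, with Myh13 as the exception, compared with 13.6% of all promoters. On the strand of the gene alone it was present in 4 of 6, not in Myh8 or Myh13, compared with 8.32% of all. The TATAAA and MEF2 motifs overlapped in Myh1, Myh4 and Myh8, where the MEF2 match contains TATAAA on the other strand. In Myh8 this was the only TATAAA match, so the count of 5 of 6 includes a promoter through its MEF2 match.

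No H3K27ac peak lay in the cluster in proliferating myoblasts, and at 36 h and 72 h peaks lay in separate stretches of it. Peaks covered no base of the window in proliferating cells. They covered 23.8 kb of it, or 7.33%, at 36 h and 34.6 kb, or 10.6%, at 72 h. Over the whole genome the corresponding shares were 1.19%, 2.12% and 2.41%. The cluster was thus below the genome in proliferation and 3.45 and 4.41 times as densely covered as the genome at 36 h and 72 h. In peaks per 100 kb it held 0, 8.62 and 14.2, compared with 2.16, 3.40 and 3.68 in the genome. At 72 h the cluster had 1.45 times the covered length of 36 h, and all windows together had 1.14 times. Among the 5252 windows of the same length with peaks at 36 h, the ratio of the cluster was above that of 72.6%.

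**Figure D1:**
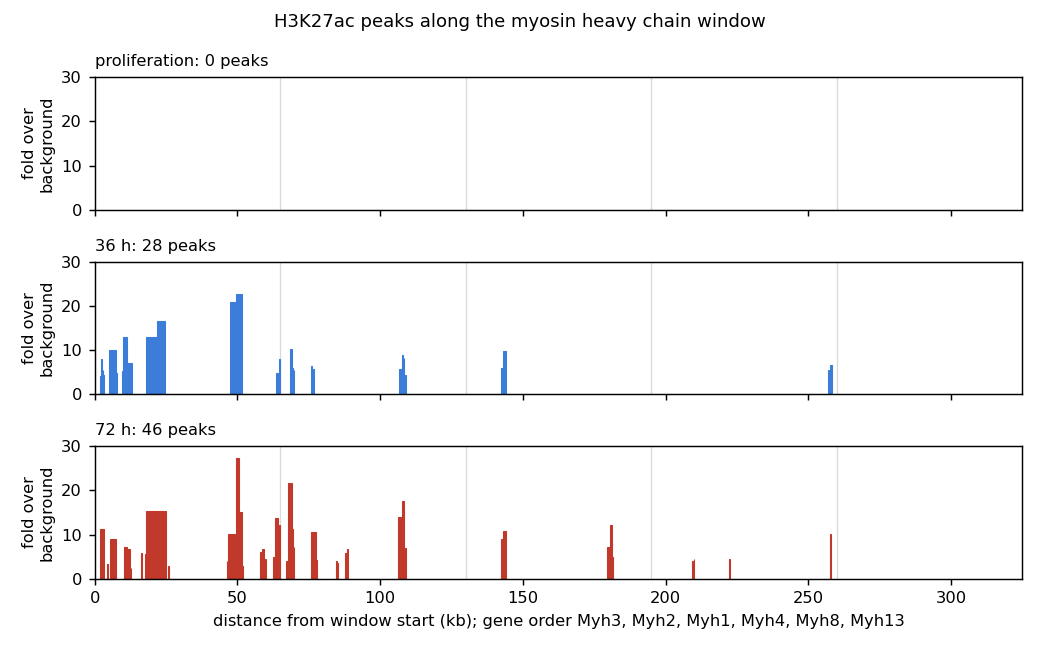
H3K27ac peaks along the myosin heavy chain window at 3 stages, with distance from the window start in kb on the x axis and the authors' fold over background at the summit on the y axis, which can be compared within a stage only. Each bar is a peak drawn at its called width, and grey lines divide the window into 5 equal parts: the proliferation panel is empty, and most of the 28 peaks at 36 h and 46 peaks at 72 h lie towards the Myh3 end.

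A higher covered length in differentiation was common in the genome, and a cover of this extent with none in proliferation was rare but not unique to the cluster. Among 5717 windows of 325 kb with a peak at any stage, 38.7% had at least 2 times as much length under peaks at 36 h as in proliferation. At 72 h 51.1% did. A window with no length under peaks at the earlier stage counted if it held a peak at the later one. The cluster, with no proliferation peak, counted at 36 h and 72 h by this rule and not by a ratio. The cluster did not reach 2 times from 36 h to 72 h, which 18.9% of the windows did. Windows without any proliferation peak numbered 666, or 11.6%, and their median length under peaks was 191 bp at 36 h and 625 bp at 72 h. The most that such a window of the grid had was 12.9 kb at 36 h and 18.6 kb at 72 h, below the 23.8 kb and 34.6 kb of the cluster. Measured against all windows, the cluster exceeded 88.2% at 36 h and 93.6% at 72 h. The limits of the cluster window were set with these data known, whereas the other windows lie on a fixed grid, so a stretch like the cluster can be split between neighbouring windows. The grid window from 66950207 to 67275207, for example, cut the cluster and counted among the 666, with 3728 bp at 36 h and 8427 bp at 72 h.

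**Figure D2:**
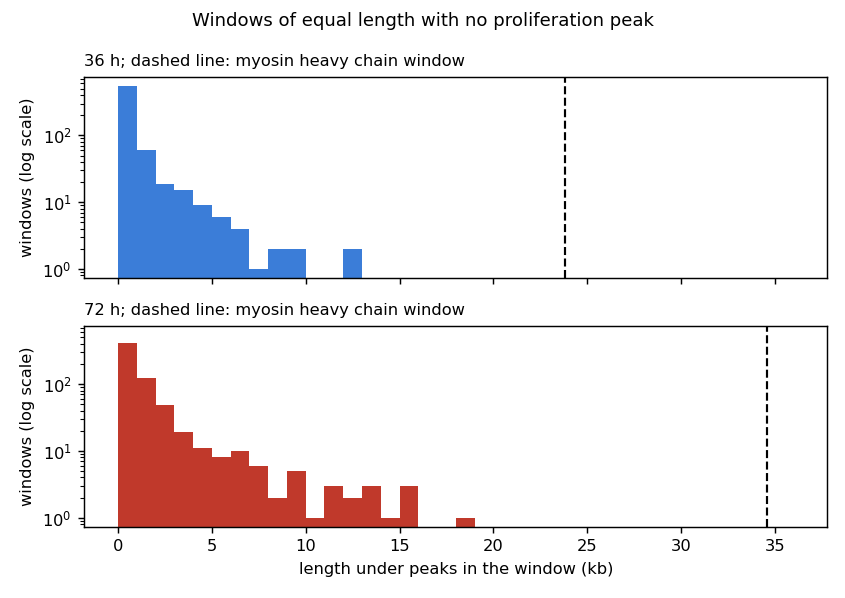
Number of windows (log scale) by length under H3K27ac peaks in kb, for the 666 windows of the same length that had no proliferation peak, at 36 h (above) and 72 h (below). The dashed line marks the myosin heavy chain window, at 23.8 kb and 34.6 kb, to the right of all of them.

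A comparison that does not depend on a grid used the intervals between neighbouring proliferation peaks. The last proliferation peak before the window lay on chromosome 11 from 66866231 to 66866478, 3.52 kb from it, with a fold of 5.49. The next one began at 67653604, 459 kb after the window, with a fold of 3.98. The interval of 787 kb between them thus contained the whole cluster and reached well beyond Myh13. Of 1484 such intervals of at least 325 kb, with a median of 672 bp at 36 h and 1198 bp at 72 h, this interval held the greatest total at 36 h, with 28691 bp. At 72 h it held 40065 bp, and only an interval of chromosome 13 from 46062392 to 46764950 held more, with 69409 bp. In peak number it held 40 at 36 h and 54 at 72 h, compared with medians of 3 and 4. The intervals differ in length, and per kb of interval it ranked 9 of 1484 at 36 h and 9 at 72 h, with 36.5 and 50.9 bp per kb. The densest at both stages was an interval of 345 kb on chromosome 11 from 114587439 to 114932606, with 69.8 and 102 bp per kb. With a window of 325 kb placed where it held the most in each interval, 2 intervals other than that of the cluster held at least as much as the cluster window at 36 h, and 2 did at 72 h. These were the same pair at both stages: the one on chromosome 11 had 24093 bp (36 h) and 35163 bp (72 h), and the one on chromosome 13 had 23948 bp and 56263 bp. The cluster window was kept fixed in this count. When the window was placed in the same way in the interval of the cluster, it held 25150 bp at 36 h and 34694 bp at 72 h. By that measure the interval ranked 1 of 1484 at 36 h and 3 at 72 h.

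The depth of the proliferation library bears on its empty window. In that library 9 summit fragments sufficed for the smallest deposited p at the genome background. At the local background that 95% of its peaks did not exceed, 18 fragments were needed. The summit fragments of the cluster, scaled to the proliferation depth, had a median of 20.9 and a maximum of 66.1 at 36 h, and a median of 19.1 and a maximum of 92.0 at 72 h. At equal signal, 28 of 28 peaks of 36 h and 45 of 46 of 72 h would have had at least 9 fragments. At least 18 fragments were reached by 18 of 28 and 29 of 46. Weaker acetylation, below those fragment numbers, was not detectable in proliferation at this depth.

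Acetylation was concentrated at the Myh3 end of the window and thinned out towards the Myh13 end. Without gene positions on mm9, it was not determined whether part of Sco1, the next gene before Myh3, lies at that end. When the window was divided into 5 parts of 65 kb, the length under peaks at 36 h was 18.4, 3.06, 1.40, 0.917 and 0 kb from the first to the last part. At 72 h it was 21.9, 7.97, 3.53, 1.15 and 0 kb. The first part thus held 77.4% of the covered length at 36 h and 63.4% at 72 h. By number, 15 of the 28 peaks of 36 h and 22 of the 46 peaks of 72 h had their summit in the first part. From 36 h to 72 h the covered length differed most in the second part, by 2.61 times, and in the middle part, by 2.52 times. In the first part it differed by 1.19 times and in the part before the last by 1.25 times. No peak of any stage lay in the last 66.8 kb, after position 67128198, and at 36 h a further 113 kb before the last pair of peaks held none.

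**Figure D3:**
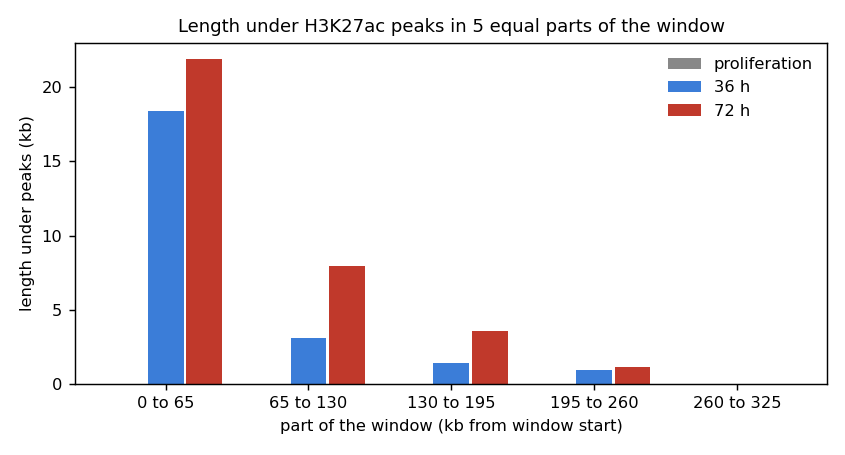
Length under H3K27ac peaks in kb (y axis) in 5 equal parts of the window, given as kb from its start (x axis), for proliferation (grey, at 0 throughout), 36 h (blue) and 72 h (red). The bars decrease from the part at the Myh3 end, with 18.4 kb at 36 h and 21.9 kb at 72 h, to 0 in the last part.

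Joined across gaps of up to 10 kb, the peaks of both later stages formed 8 stretches, of which 5 had peaks at 36 h and 8 at 72 h. The first stretch, from 66871827 to 66895974 on chromosome 11, had nearly the same length under peaks at both stages, with 13467 bp in 11 peaks at 36 h and 13533 bp in 10 peaks at 72 h. The second, from 66916248 to 66958762, had 6.61 kb in 9 peaks at 36 h and 14.1 kb in 23 peaks at 72 h, a ratio of 2.13. It accounted for most of the added length. The third, from 66976294 to 66979041, had 4 peaks at each stage, with 1.41 kb at 36 h and 2.26 kb at 72 h. The fourth, from 67012294 to 67013931, had 2 peaks at each stage, with 1.40 kb and 1.54 kb.

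Beyond that point the stages differed in which stretches were called. The stretch from 67049429 to 67051720, with 1.99 kb under 3 peaks, was called at 72 h only. Its middle peak, from 67050542 to 67051122, had 37 summit fragments and a fold of 12.1, above 85.4% of the 72 h list, the strongest of the regions called at 72 h only. Weaker stretches from 67079320 to 67079987 and from 67092305 to 67092490 were also called at 72 h only, with at most 15 and 13 summit fragments. The last stretch, from 67126964 to 67128198, had 2 peaks with 0.917 kb at 36 h and 1 peak with 0.458 kb at 72 h, and at most 27 and 34 summit fragments.

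The longest stretches of the cluster ranked within the first few percent of their lists. Within the 36 h list, the first stretch continued to a peak at 66865255 before the window and had 16.0 kb under peaks, rank 419 of 23231 stretches (the first 1.80%). At 72 h it had 14.9 kb, rank 539 of 25499 (2.11%), and the second stretch had 14.1 kb, rank 619 (2.43%). The peak on this side of the window was acetylated at every stage: from 66865634 to 66866017 in proliferation (fold 7.84), from 66865255 to 66866991 at 36 h (fold 22.4) and from 66865276 to 66866614 at 72 h (fold 14.9). At 36 h 3 further peaks lay between it and the window, from 66868276 to 66869648, and the nearest was 0.352 kb outside. The folds of the peak acetylated at every stage come from separate lists and do not measure a change between stages.

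As merged regions, in which peaks of the lists that overlap or touch are joined, the cluster comprised 46 regions. Of these, 19 (41.3%) had peaks at 36 h and 72 h, compared with 22.3% of all 112853 regions of the genome. A further 25 (54.3%) had a peak at 72 h only, compared with 23.9%, and 2 (4.35%) at 36 h only, compared with 15.8%. Because no region had a proliferation peak, the shares are higher than in the genome by construction. Among the 70025 regions of the genome without a proliferation peak, 35.9% had peaks at both later stages. Of the same 70025, 38.5% were called at 72 h alone and 25.5% at 36 h alone. Regions of the cluster held by both later stages had a median width of 1056 bp, compared with 581 bp for that class in the genome, and regions of 72 h only had 270 bp, compared with 233 bp. The weakest peaks made up much of the latter class: 10 of the 25 regions of 72 h only had a peak with a −log10 q of at least 5. With only such peaks kept in the lists, the 72 h peak number was 30 in place of 46, and 11 regions were of 72 h only, of which 1 had lost its 36 h peak.

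Most of what was acetylated at 36 h was acetylated at 72 h. Of 28 peaks of 36 h, 26 (92.9%, 95% Wilson interval 77.4 to 98.0%) overlapped a 72 h peak, and of 46 peaks of 72 h, 21 (45.7%, 32.2 to 59.8%) overlapped a 36 h peak. These intervals cover at most counting error and treat peaks as independent, which neighbouring peaks are not. In the region from 66871827 to 66873358, for example, 4 peaks of 36 h overlapped 1 peak of 72 h. The overlapping share of all peaks of each list was not calculated, so the genome is compared by length only. In base pairs, 88.6% of the 36 h cover was also covered at 72 h, compared with 78.4% in the genome. Of the 72 h cover, 61.0% was covered at 36 h, compared with 69.0%. The 2 regions of 36 h only were narrow, from 66879685 to 66879859 and from 67126964 to 67127296, with 18 and 17 summit fragments.

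The strongest region of the cluster at both stages lay from 66919536 to 66921744, in the second stretch. The summit held 79 fragments at 36 h and 101 at 72 h, with folds of 22.7 and 27.3, above 97.2% and 98.8% of the peaks of their lists. Scaled for depth, the 72 h summit was 1.39 times that of 36 h (exact 95% interval 1.03 to 1.89, counting error only). The region beside it, from 66916857 to 66919277, had 70 and 76 fragments, a depth-scaled ratio of 1.18 (0.843 to 1.66), which includes 1. Its fold was 20.9 at 36 h and 10.2 at 72 h, and its local background, put on the same scale as the summit fragments, was 1.98 fragments at 36 h and 6.09 at 72 h. The lower fold at 72 h thus went with a higher background and not with fewer fragments.

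The widest region, from 66887854 to 66894831, spanned 6978 bp in the first stretch. It was called as 2 peaks with 6754 bp at 36 h and as a single peak of 6860 bp at 72 h, the widest of the cluster. Its summits had 73 and 92 fragments, a ratio of 1.37 (0.998 to 1.89). In the same stretch the regions from 66875074 to 66877816 and from 66881280 to 66883015 were also among the 5 widest, with 42 and 53 fragments for the former and 39 and 29 for the latter. Between them, the region from 66879992 to 66881229 had 41 fragments at 36 h and 21 at 72 h, a ratio of 0.558 (0.313 to 0.966). It was the only region of the cluster whose interval lay below 1.

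The next regions were described for their high fold at 72 h, so a higher summit at 72 h than at 36 h is favoured by that choice and is given as a description. From 66937753 to 66939020, in the second stretch, summit fragments numbered 32 at 36 h and 67 at 72 h, a depth-scaled ratio of 2.28 (1.48 to 3.59), and the covered length was 643 and 1268 bp. In the third stretch, the region from 66977689 to 66978516 had 27 and 54 fragments, a ratio of 2.18 (1.35 to 3.60). The region beside it, from 66976294 to 66977265, had 31 and 43, a ratio of 1.51 (0.930 to 2.48) that does not exclude 1. Folds at 72 h were 21.6, 17.5 and 14.0 for these regions, the lowest of them above 89.2% of the 72 h list.

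**Figure D4:**
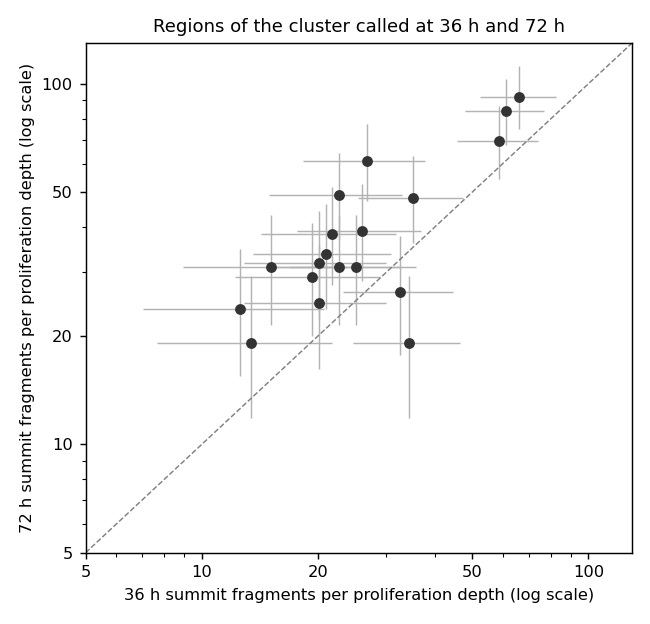
Summit fragments at 72 h (y axis) against 36 h (x axis), both divided by the depth relative to proliferation and on log scales, for the 19 regions of the cluster called at both stages. Error bars are exact 95% Poisson intervals of the fragment number and the dashed line marks equality: 17 points lie above it and 2 below.

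Over the 19 regions of both later stages, the depth-scaled summit ratio of 72 h to 36 h ranged from 0.558 to 2.28 with a median of 1.43. It was above 1 in 17 regions (89.5%), compared with 65.5% of the 25156 such regions of the genome, whose median was 1.16. The interval lay above 1 in 5 regions, below 1 in 1 and included 1 in 13. Ratios above 1 were general in the genome, with a median of 1.15 also over regions of all 3 stages, and only the 2 regions from 66937753 and 66977689 had a lower limit above 1.16. The covered length was greater at 72 h in 15 regions and smaller in 4. Those 4 were the regions from 66875074, 66879992 and 66881280 in the first stretch and the one from 67127541 in the last.

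By their medians, the single peaks of the cluster were of ordinary strength and width for their lists. The median fold was 6.47 at 36 h and 6.78 at 72 h, above 58.4% and 61.1% of the peaks of each list. A fold of at least 10 was reached by 7 of 28 peaks at 36 h and 15 of 46 at 72 h. The share at 36 h was close to the 20.6% of its list, and the share at 72 h was above the 20.4% of its list. The median width was 454 bp and 399 bp, above 57.7% and 50.5% of the lists. Only 3 peaks at each stage were wider than 2 kb. The local background at the peaks of the cluster had a median of 1.06 times the genome background at 36 h and 1.01 times at 72 h, compared with 1.06 and 1.15 times over each list.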

How the data were processed

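The H3K27ac peaks of C2C12 cells at 3 stages were analysed from the narrowPeak lists that the authors deposited, 1 per H3K27ac library. Per the submitters' processing notes, BWA, MACS2 and deepTools were used with build mm9, and their versions and settings are unknown here. Per the narrowPeak column order, the authors' values in the deposited lists are a fold (ratio of ChIP to background at each summit) and the p-value and q-value, both as −log10. The deposited score was not analysed. These values were ranked within 1 list only. Folds printed side by side for several stages do not measure a change, since depth and background differ between the lists. Read totals were not used. Summit fragments and local background were recovered from fold and p, which returned the deposited p of 100% of peaks within a relative tolerance of 0.0003. The procedure was tested on simulated data. Scale factors were 0.673, 0.698 and 0.657, and the ChIP depth relative to proliferation was 1.20 at 36 h and 1.10 at 72 h. The genome background, on the scale of the ChIP fragments, was 1.50, 1.80 and 1.65 fragments.

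Positions are on mm9 and count from 1. Members, limits of the window and lists were chosen with earlier results of these data known. Regions described singly were the 5 widest, the 5 with the highest fold at 36 h and the 5 at 72 h, any with a proliferation peak, and further ones chosen after their values were seen. Windows of the same length lay on a fixed grid. Intervals are Wilson for shares and exact binomial for ratios of fragments. Promoters came from RefSeq (GRCm38.p6). No statistical test was run. The alternatives tried were a −log10 q or fold of at least 5, lists of equal size, thinning to the proliferation depth, other window limits, other merging, calling and stitching settings and, chosen after seeing the data, windows placed freely between proliferation peaks. Python 3.11.15, numpy 2.4.6, pandas 2.3.3 and scipy 1.17.1 were used.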

Additional observations from a re-analysis of the deposited data

How the results depend on the processing

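The absence of proliferation peaks could change only with a longer window, since the other settings can only remove peaks or join them. With the window extended by 50 kb on each side, 5 proliferation peaks with 1512 bp were included, in 4 regions, and regions of 36 h only numbered 5. The 72 h peak number was 30 with a −log10 q of at least 5, 29 with a fold of at least 5 and 30 with lists of equal size, and regions of 72 h only numbered 11 in each of these settings. Shortening the window, which removes the first stretch and the start of the second, gave 16 peaks and 8013 bp at 36 h, 17930 bp at 72 h, a ratio of 2.24 and 1 region of 36 h only. Merging peaks within 1 kb gave 11 regions of both later stages, 0 of 36 h only and 7 of 72 h only. Calling windows at 3 times gave 22.4% for 36 h and 33.1% for 72 h against proliferation, and 12.1% for 72 h against 36 h. In place of 0 windows of the fixed grid, 2 intervals without proliferation peaks held a window with as much cover as the cluster at 36 h, and 2 at 72 h (an alternative chosen after seeing the data). The cluster window was kept fixed in that count. With the window of its own interval also placed freely, that interval ranked 1 at 36 h and 3 at 72 h. Of 93 alternative values over 22 results, 70 stayed within 1.5 times of the reported value, or within its interval for shares. These 70 include the proliferation values of 0, which most settings could not change. They also include the shares in the first 2 of 10 parts, which are the same stretch as the first of 5 parts. The count thus overstates how stable the results were. Over the whole window, the covered length was greater at 72 h than at 36 h in every setting that gave both. The stitched stretch with the most length under peaks had 16034 bp at 36 h and 14872 bp at 72 h. With stitching over 20 kb the order was reversed, with 16034 bp at 36 h and 16352 bp at 72 h. No paired analysis was possible because each stage had a single library. Depth limits weak acetylation in proliferation, and the absence of replicate libraries limits all comparisons between stages.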
